A study of Mus musculus with 11 samples.

Results

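Haemoglobin and erythroid genes were measured as 7 genes of the 18667 in the expression tables: the alpha-globin genes *Hba-a1* and *Hba-a2*, the beta-globin genes *Hbb-bs* and *Hbb-bt*, and 3 further genes of the red cell lineage, *Alas2*, *Slc4a1* and *Ahsp*. They were chosen by name. The 4 globins were set apart as the RNA of circulating red cells, and the other 3 as genes of developing red cells in the marrow. All 7 reached the mean of 0.1 FPKM (mapped fragments scaled to exon length and to library size) that 16169 genes reached and at which genes were tested. RNA-Seq was performed on whole cochleae of 2-month-old mice, with 5 *Atf6*+/+ and 6 *Atf6*-/- libraries, each from an individual cochlea. Both groups were on the C57BL/6J background, which carries the *Cdh23* ahl allele and loses hearing with age, and the methods describe the *Atf6*+/+ mice as littermates and the mice used as female or male. In *Atf6*-/- mice a stop codon introduced into exon 4 of *Atf6* is present in all cells and no protein is made. The gene encodes a sensor of the unfolded protein response. Nothing in the sources used here states whether the vessels were flushed of blood or how much bone was kept around the cochlea.

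Red cells carry haemoglobin, a tetramer of alpha and beta chains that each hold a haem group. Globin RNA is made in erythroblasts of the marrow, is still present in the reticulocytes that leave it, and so enters any tissue sample that contains blood. Erythroblasts in addition express membrane proteins such as band 3, factors such as GATA1 and KLF1, and cell cycle genes, which are shut down as the cell matures. The mouse cochlea lies in the bone of the otic capsule and is supplied with blood through the vessels of the lateral wall and the modiolus.

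As a check of the labels, mean *Atf6* RNA was 9.52 ± 1.11 FPKM (SD, n = 5) with the intact gene and 4.27 ± 0.28 FPKM (SD, n = 6) with the disrupted one, and the groups did not overlap. The cochlear marker *Coch*, which encodes cochlin of the spiral ligament, lay between 2024 and 3731 FPKM in the 11 libraries. FPKM summed to between 462005 and 537926 per library. The methods state 1 nominal read number for every sample, but the reads behind each library's values were not used here, so no counting error is given. Across all 16169 genes, 868 were lower in *Atf6*-/- cochleae at an unadjusted limma p of at most 0.05 and a log2 difference beyond 0.05 (5.37%), and 724 were higher (4.48%). With an adjusted p under 0.05, 2 genes were lower (0.0124%) and 9 were higher. All *Atf6*-/- libraries were below all *Atf6*+/+ libraries for 98 genes (0.606%).

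The 5 members found in the RefSeq promoter table of GRCm38.p6 were the 4 globins and *Alas2*, and the table held no entry for *Slc4a1* and *Ahsp*. The 130 bases before each start site are given on the strand of the gene, chr11:32283542-32283671 for *Hba-a1*, chr11:32296362-32296491 for *Hba-a2*, chr7:103827929-103828058 for *Hbb-bs*, chr7:103813924-103814053 for *Hbb-bt*, chrX:150547287-150547416 for *Alas2*. The strand is the plus strand for *Hba-a1*, *Hba-a2* and *Alas2* and the minus strand for the beta-globin genes. The expression values rest on another build, GRCm39, and hold no coordinates. Capitals mark the GATA motif (AGATAA, its variant AGATAG, and the same with T first, TGATAA and TGATAG), the CACC box of KLF factors (CCNCNCCC) and CCAAT, each on either strand.
Hba-a1: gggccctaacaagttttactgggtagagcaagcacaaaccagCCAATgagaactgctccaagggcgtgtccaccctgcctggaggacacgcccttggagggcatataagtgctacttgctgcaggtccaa
Hba-a2: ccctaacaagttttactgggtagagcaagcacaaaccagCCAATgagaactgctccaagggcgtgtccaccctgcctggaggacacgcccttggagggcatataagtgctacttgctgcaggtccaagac
Hbb-bs: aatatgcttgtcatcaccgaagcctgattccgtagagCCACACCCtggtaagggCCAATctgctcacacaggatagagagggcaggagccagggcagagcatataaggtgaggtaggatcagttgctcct
Hbb-bt: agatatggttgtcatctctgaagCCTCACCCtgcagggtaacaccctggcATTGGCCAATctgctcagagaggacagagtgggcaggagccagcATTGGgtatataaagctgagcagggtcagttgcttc
Alas2: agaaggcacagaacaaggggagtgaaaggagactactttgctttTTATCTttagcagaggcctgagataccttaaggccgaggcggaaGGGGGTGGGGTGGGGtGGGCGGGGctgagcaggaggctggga
The windows of *Hba-a1* and *Hba-a2* share a run of 127 bases, so they are nearly the same sequence offset by 3 bases. The longest run shared by *Hbb-bs* and *Hbb-bt* is 14 bases. CCAAT begins at -88 in *Hba-a1*, -91 in *Hba-a2* and -76 in *Hbb-bs*, counted from -1 just before the start site, and it occurs 3 times in *Hbb-bt*, where ATTGG beside it is the same motif on the other strand. A CACC box begins at -93 in *Hbb-bs* and at -107 in *Hbb-bt*, and 4 matches lie in the G-rich stretch of *Alas2*, of which 3 overlap and the last stands apart. *Alas2* is the member with a GATA motif in the printed window, at -86, where it overlaps an ATAAA match. In the full 250 bases before the start, 4 of the 5 members held a GATA motif, 3 a CACC box, 4 CCAAT, 4 an E-box (CAGNTG), 2 ATAAA and 0 the core shared by NF-E2 and AP-1 (TGANTCA). Among all 32851 promoters of the table the same motifs were found in 26.5%, 45.9%, 33.8%, 44.8%, 37.3% and 6.75%. These are matches of letters, and binding was not measured.

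All 4 adult globins had lower levels in *Atf6*-/- than in *Atf6*+/+ cochleae, by 2.89-fold to 3.16-fold as antilogs of the differences between mean log2(FPKM + 0.1) values, but the libraries of each genotype differed among themselves by more than 3-fold and no gene passed adjustment over all genes. *Hba-a1*, which encodes adult alpha-globin, was at 6829, 2209, 6574, 6184 and 19706 FPKM in *Atf6*+/+ replicates 1 to 5. In *Atf6*-/- cochleae its lowest, median and highest levels were 1272, 2214 and 4173 FPKM. Thus *Atf6*+/+ replicate 5 was the highest of all libraries, at 2.89 times the next *Atf6*+/+ library, while *Atf6*+/+ replicate 2 lay inside the *Atf6*-/- range and the other *Atf6*+/+ libraries lay above it. The means were 8300 ± 6648 FPKM (SD, n = 5) and 2405 ± 1018 FPKM (SD, n = 6). The log2 fold change of *Hba-a1* was -1.55 (SE 0.46, limma p = 0.00540, adjusted p = 0.374, exact two-sided permutation p = 0.0173). In a whole tissue, fewer red cells and less globin RNA per red cell cannot be told apart.

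*Hba-a2*, the second alpha-globin gene, was at 5042, 1457, 4502, 4101 and 14308 FPKM in *Atf6*+/+ replicates 1 to 5. Its lowest, median and highest levels in *Atf6*-/- cochleae were 905, 1537 and 2902 FPKM. The order of the *Atf6*+/+ libraries was that of *Hba-a1*, with replicate 5 highest and replicate 2 among the *Atf6*-/- values. The log2 fold change was -1.53 (SE 0.47, limma p = 0.00663, adjusted p = 0.391, exact two-sided permutation p = 0.0195). The coding sequences of *Hba-a1* and *Hba-a2* matched at 428 of 429 bases in the GRCm38 transcripts, so the split of reads between them is uncertain. With both summed the log2 fold change was -1.54 (limma adjusted p = 0.391).

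*Hbb-bs*, a beta-globin gene of the haplotype carried by C57BL/6 mice, was at 3479, 946, 3029, 2837 and 10452 FPKM in *Atf6*+/+ replicates 1 to 5. In *Atf6*-/- cochleae its lowest, median and highest levels were 585, 983 and 1883 FPKM. Again 4 of the 5 *Atf6*+/+ libraries were above every *Atf6*-/- library, and *Atf6*+/+ replicate 2 was below 3 of them. The log2 fold change was -1.62 (SE 0.49, limma p = 0.00594, adjusted p = 0.380, exact two-sided permutation p = 0.0173). *Hbb-bt*, its neighbour, was at 694, 196, 681, 550 and 1818 FPKM in *Atf6*+/+ replicates 1 to 5. Its lowest, median and highest *Atf6*-/- levels were 101, 188 and 381 FPKM, and its log2 fold change was -1.66 (SE 0.47, limma p = 0.00389, adjusted p = 0.362, exact two-sided permutation p = 0.0173). The coding sequences of *Hbb-bs* and *Hbb-bt* matched at 443 of 444 bases, so this split is uncertain too, and the log2 fold change of their sum was -1.62 (limma adjusted p = 0.379).

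**Figure D1:**
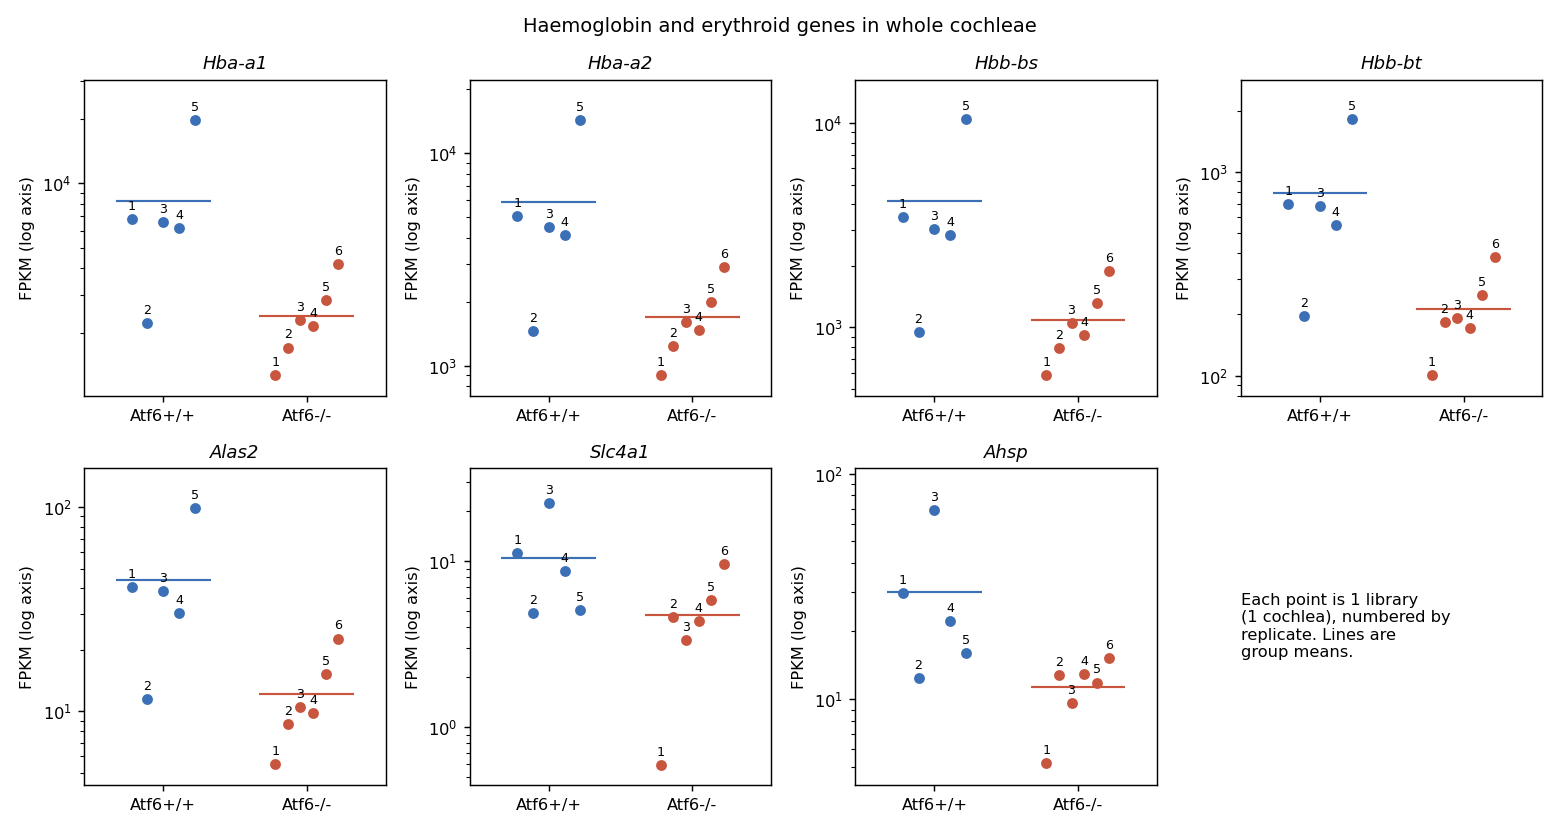
FPKM (log axis) of the 7 members in each library, with *Atf6*+/+ in blue and *Atf6*-/- in red, replicate numbers above the points and lines at the group means. The globins and *Alas2* are highest in *Atf6*+/+ replicate 5 (*Hbb-bs* 10452 FPKM), whereas *Slc4a1* and *Ahsp* are highest in *Atf6*+/+ replicate 3 (22.4 and 68.6 FPKM), and all 7 are lowest in *Atf6*-/- replicate 1.

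The 4 globins kept close proportions while their levels changed. The summed alpha-globin level was 2.97 ± 0.17 times the summed beta-globin level (SD, n = 5) in *Atf6*+/+ and 3.14 ± 0.10 times (SD, n = 6) in *Atf6*-/- cochleae, and it lay between 2.77 in *Atf6*+/+ replicate 5 and 3.31 in *Atf6*-/- replicate 4. The ratio of *Hbb-bs* to *Hbb-bt* ranged from 4.34 to 5.80. By contrast, the 4 globins together made up 3.29%, 1.01%, 3.05%, 2.67% and 8.60% of all FPKM in *Atf6*+/+ replicates 1 to 5, and from 0.597% to 1.99% in *Atf6*-/- cochleae. A library with 8.60% of its level in globins leaves less for other genes on a scale of shares, and rescaling to TPM without the globins gave log2 fold changes from -1.51 to -1.64.

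*Alas2*, which encodes the erythroid enzyme of the rate-limiting step of haem synthesis, followed the globins library by library. It was at 40.6, 11.5, 38.7, 30.2 and 99.2 FPKM in *Atf6*+/+ replicates 1 to 5. In *Atf6*-/- cochleae its lowest, median and highest levels were 5.53, 10.2 and 22.7 FPKM. As with the globins, *Atf6*+/+ replicate 5 was highest and *Atf6*+/+ replicate 2 overlapped the *Atf6*-/- libraries. The means were 44.0 ± 32.9 FPKM (SD, n = 5) and 12.1 ± 6.07 FPKM (SD, n = 6), and the difference between mean log2 levels corresponded to a 3.20-fold lower level (log2 fold change -1.68, SE 0.47, limma p = 0.00365, adjusted p = 0.362, exact two-sided permutation p = 0.0152). Per 1000 FPKM of beta-globin, the level of *Alas2* averaged 9.45 ± 0.94 FPKM in *Atf6*+/+ (SD, n = 5), against 9.02 ± 0.73 FPKM in *Atf6*-/- cochleae (SD, n = 6). Across an almost 18-fold range of beta-globin this ratio stayed between 8.06 and 10.4.

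*Slc4a1*, which encodes band 3, the anion exchanger and main integral protein of the red cell membrane, had another pattern. It was at 11.2, 4.85, 22.4, 8.79 and 5.08 FPKM in *Atf6*+/+ replicates 1 to 5. Its lowest, median and highest *Atf6*-/- levels were 0.59, 4.49 and 9.58 FPKM. Here *Atf6*+/+ replicate 3 was highest, replicate 5 was near the bottom of its group, and 2 of the 5 *Atf6*+/+ libraries were above every *Atf6*-/- library. The means were 10.5 ± 7.20 FPKM (SD, n = 5) and 4.73 ± 2.97 FPKM (SD, n = 6), with a log2 fold change of -1.25 (SE 0.59, limma p = 0.0567, adjusted p = 0.505, exact two-sided permutation p = 0.0866). With this limma p the difference of *Slc4a1* between genotypes did not pass the unadjusted rule given above for all genes. Without *Atf6*-/- replicate 1, where *Slc4a1* was at 0.59 FPKM, the log2 fold change was -0.76 (limma adjusted p = 0.636).

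*Ahsp*, which encodes the chaperone that holds free alpha-globin until it pairs with a beta chain, was highest in the same library as *Slc4a1*. It was at 29.5, 12.4, 68.6, 22.2 and 16.0 FPKM in *Atf6*+/+ replicates 1 to 5. Its lowest, median and highest *Atf6*-/- levels were 5.22, 12.3 and 15.2 FPKM. *Atf6*+/+ replicate 3 alone reached more than 2 times the next library, and *Atf6*+/+ replicate 2 fell within the *Atf6*-/- range. The means were 29.7 ± 22.7 FPKM (SD, n = 5) and 11.3 ± 3.48 FPKM (SD, n = 6), with a log2 fold change of -1.19 (SE 0.39, limma p = 0.0102, adjusted p = 0.407, exact two-sided permutation p = 0.0130). Without *Atf6*+/+ replicate 3 the log2 fold change of *Ahsp* was -0.82 (limma adjusted p = 0.616).

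In all, 6 of the 7 members were lower in *Atf6*-/- cochleae at the unadjusted rule, which 5.37% of all genes passed in that direction, and 0 of the 7 were lower at a limma adjusted p under 0.05, as 0.0124% of all genes were. The groups overlapped for all 7. The members are not separate measurements of the genotype, since all come from the same 11 libraries.

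The members were then compared across the 11 libraries after the mean of each genotype was removed. *Alas2* and *Hbb-bs* correlated with r = 0.988 (Spearman rho = 0.982, exact permutation p = 1.16e-05 for each, the smallest that pairings within genotypes can give, adjusted p = 6.94e-05 over 6 relations). Without the 2 libraries farthest from the median, *Atf6*+/+ replicates 2 and 5, r was 0.990, and it was 0.995 within *Atf6*+/+ and 0.996 within *Atf6*-/- cochleae. *Alas2* with *Slc4a1* gave r = 0.479 (rho = 0.555, exact permutation p = 0.124 and 0.0974, adjusted p = 0.371 and 0.292). *Alas2* with *Ahsp* gave r = 0.395 (rho = 0.418, exact permutation p = 0.322 and 0.234, adjusted p = 0.482 and 0.349). *Slc4a1* and *Ahsp* correlated with each other with r = 0.885 (rho = 0.909, exact permutation p = 0.000116 and 0.000718, adjusted p = 0.000360 and 0.00201 over 28 relations that were added after the values were seen), and with r = 0.902 without *Atf6*+/+ replicate 2 and *Atf6*-/- replicate 1. *Hbb-bs* correlated with *Slc4a1* with r = 0.351 (rho = 0.491, exact permutation p = 0.256 and 0.149, adjusted p = 0.358 and 0.220) and with *Ahsp* with r = 0.285 (rho = 0.318, exact permutation p = 0.519 and 0.372, adjusted p = 0.582 and 0.417).

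The distance between these patterns rested on *Atf6*+/+ replicate 5. Without that library *Alas2* correlated with *Slc4a1* with r = 0.839 and *Hbb-bs* with r = 0.772, while *Alas2* and *Hbb-bs* stayed at r = 0.989. *Ahsp*, too, correlated with *Hba-a1*, its alpha-globin client, with r = 0.742 without that library, against r = 0.309 with all 11 (rho = 0.355, exact permutation p = 0.468 and 0.321, adjusted p = 0.570 and 0.374). Within *Atf6*-/- cochleae *Slc4a1* followed *Hbb-bs* with r = 0.856, and within *Atf6*+/+ cochleae it did not (r = 0.021, over 5 libraries). In *Atf6*+/+ replicate 5 the globins were at the top of all libraries, but *Slc4a1* stood at 0.414 FPKM and *Ahsp* at 1.31 FPKM per 1000 FPKM of beta-globin. In the other *Atf6*+/+ libraries *Slc4a1* lay between 2.60 and 6.05 and *Ahsp* between 6.54 and 18.5 on that scale. In *Atf6*-/- replicate 1 the ratio of *Slc4a1* was also low, at 0.860, while that of *Ahsp*, 7.61, was within the range of the other *Atf6*-/- libraries. *Alas2*, although set with the genes of developing red cells, thus had the pattern of the globins over all 11 libraries. Within *Atf6*-/- cochleae it also followed *Slc4a1* (r = 0.884), and which cells its RNA came from was not tested.

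**Figure D2:**
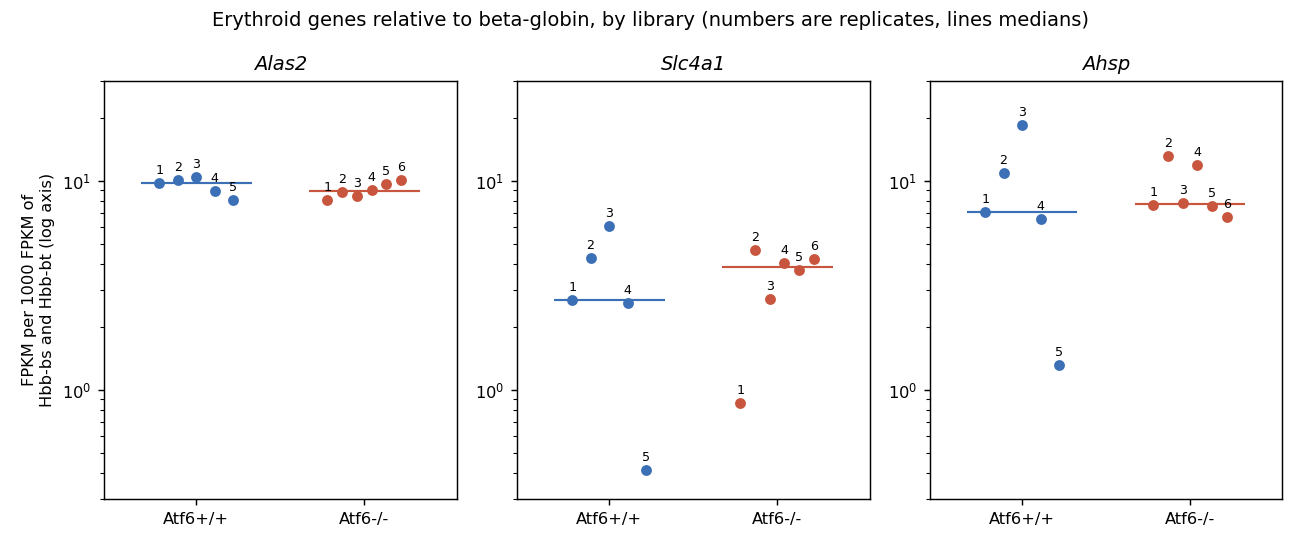
FPKM of *Alas2*, *Slc4a1* and *Ahsp* per 1000 FPKM of *Hbb-bs* and *Hbb-bt* (log axis) in each library, with replicate numbers and group medians as lines. *Alas2* stays between 8.06 and 10.4 in all 11 libraries, and *Slc4a1* and *Ahsp* drop to 0.414 and 1.31 in *Atf6*+/+ replicate 5.

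Other genes with these patterns were sought by likeness alone. Among genes averaging 1 FPKM or more, those closest to *Alas2* over the 11 libraries (Pearson r of log2 levels, genotype included) were *Hbb-bt* (r = 0.997), *Hba-a1* (0.995), *Hba-a2* (0.994) and *Hbb-bs* (0.993), and those closest to *Hbb-bs* were the other 4 of this group. Of the 85 other tested genes on 9 lists of erythroid genes, 8 correlated with *Hbb-bs* above 0.8 within genotypes. Among them were 4 members (*Hba-a1*, *Hba-a2*, *Hbb-bt* and *Alas2*) and *Bpgm*, *Ube2l6* and *Fech*, and *Atf6*+/+ replicate 5 was the highest *Atf6*+/+ library for all 8. *Bpgm* makes the 2,3-bisphosphoglycerate that lowers the oxygen affinity of haemoglobin, *Ube2l6* encodes a conjugating enzyme of late red cell maturation, and *Fech* encodes ferrochelatase, which inserts iron into haem.

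A further 16 genes correlated with *Slc4a1* above 0.8, and 0 genes did so with both. Among these were *Ahsp*, the membrane genes *Epb42*, *Rhag*, *Rhd*, *Kel* and *Ermap*, the factors *Gata1*, *Klf1* and *Tal1*, the erythropoietin receptor *Epor*, and *Car1*, *Hemgn*, *Trim10* and *Pklr*. *Atf6*+/+ replicate 3 was the highest *Atf6*+/+ library for all 16. Without *Atf6*+/+ replicate 5, 8 genes were above 0.8 with *Hbb-bs*, 19 with *Slc4a1*, and 4 (among them *Hbb-bt*, *Alas2* and *Epor*) with both. The genes of both groups were chosen by these correlations, so their number is a description and was not tested.

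**Figure D3:**
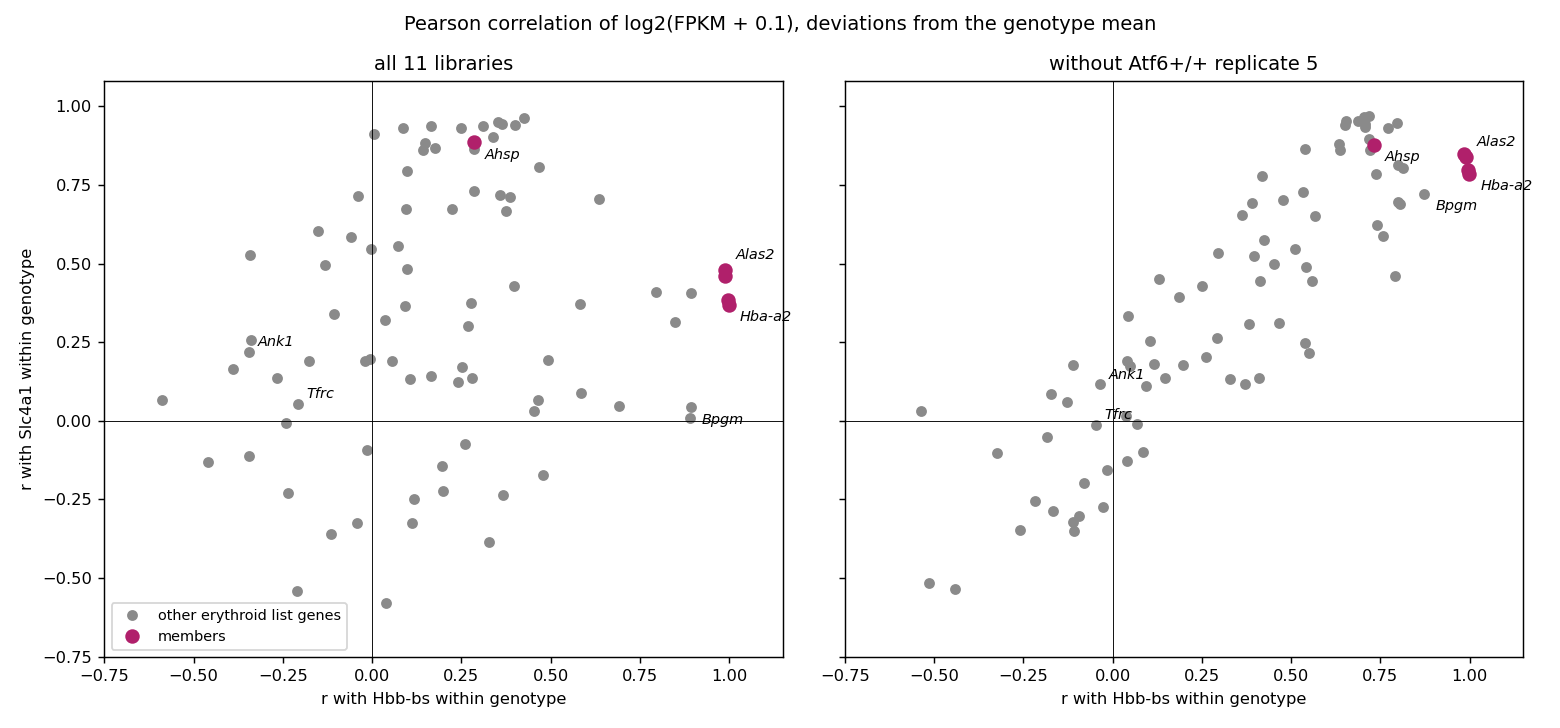
Pearson r of each tested erythroid gene with *Hbb-bs* (horizontal) and with *Slc4a1* (vertical), on log2(FPKM + 0.1) after removal of the genotype mean, for all 11 libraries and without *Atf6*+/+ replicate 5. With all libraries the globins and *Alas2* (r = 0.988 with *Hbb-bs*) stand apart from *Ahsp* (r = 0.885 with *Slc4a1*), and without that library the groups lie close together.

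Genes of the rest of the red cell pathway were read against the members. On the list of other globins, *Hbq1b*, a theta-globin gene, was at 0.85, 0.63, 1.04, 0.99 and 0.91 FPKM in *Atf6*+/+ replicates 1 to 5 and from 0.14 to 0.52 FPKM in *Atf6*-/- cochleae, so its groups did not overlap. Its log2 fold change was -1.17 (limma adjusted p = 0.152). Its near copy *Hbq1a* reached at most 1.43 FPKM, in *Atf6*+/+ replicate 5, and was listed at 0 in 4 libraries. Its mean was 0.330 FPKM with *Atf6* intact against 0.308 FPKM without, but its mean log2(FPKM + 0.1) differed in the other direction, by 0.42 (limma adjusted p = 0.875), so no direction is given. The split between *Hbq1a* and *Hbq1b* is uncertain. The embryonic *Hbb-y* did not exceed 0.46 FPKM and was listed at 0 in 5 libraries (limma adjusted p = 0.505), and *Hba-x*, which was not tested, did not exceed 0.19 FPKM. *Hbq1b* and *Hbb-y* were the 2 of 3 genes tested that were lower at the unadjusted rule, and 0 were higher. The count was 1 without *Atf6*+/+ replicate 2, 3 or 5 or *Atf6*-/- replicate 1, 3, 5 or 6.

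Of 8 genes of haem synthesis, 2 were lower at the unadjusted rule and 0 higher, and the count was 0 or 1 with any single library left out except *Atf6*+/+ replicate 2, without which it was 3. *Fech* was among the former, with a log2 difference of -0.15 (limma adjusted p = 0.503). *Alas1*, the form of *Alas2* used by other cells, had levels between 24.8 and 29.1 FPKM in all libraries and a log2 fold change of -0.06, and *Alad* had one of -0.03 (limma adjusted p = 0.690 and 0.927). Of 12 genes of iron and haem transport, 3 were lower and 0 higher, *Tfrc*, the transferrin receptor, with a log2 fold change of -0.30, *Tmem14c* with -0.13 and *Steap3* with -0.22 (limma adjusted p = 0.426, 0.480 and 0.494). Without *Atf6*+/+ replicate 5 or *Atf6*-/- replicate 4 or 5 the count for transport was 1. *Slc25a37*, the mitochondrial iron importer mitoferrin, showed a log2 difference of -0.06 (limma adjusted p = 0.884). *Tfrc* did not follow *Slc4a1* within genotypes (r = 0.054).

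Of 20 red cell membrane genes other than *Slc4a1*, 6 were lower and 0 higher, and without *Atf6*+/+ replicate 3 the number lower was 3. *Epb42*, the gene of protein 4.2, which binds band 3, had a log2 fold change of -1.15, and *Tspo2* of -0.69 (limma adjusted p = 0.407 and 0.415). *Rhag* and *Kel* did not pass (log2 fold changes -0.81 and -0.88, limma adjusted p = 0.570 and 0.584). *Ank1*, whose ankyrin anchors band 3 and which neurons also express, was at 59.95 to 84.99 FPKM in all libraries, and its genotype means differed by -0.01 on the log2 scale (limma adjusted p = 0.976).

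Of 12 factors of the erythroid programme, 1 was lower and 0 higher, and 2 were lower without *Atf6*+/+ replicate 5. *Klf1*, the factor of adult beta-globin transcription, had a log2 fold change of -0.92, *Gata1* of -0.48 and *Tal1* of -0.48 (limma adjusted p = 0.543, 0.763 and 0.567), with *Klf1* at 3.78 FPKM in *Atf6*+/+ replicate 3 and 0.12 FPKM in *Atf6*-/- replicate 1. The gene that passed was *Lmo2* (log2 fold change -0.46, limma adjusted p = 0.393), which did not follow *Slc4a1* (r = 0.132) or *Hbb-bs* (r = 0.107). Of 7 genes of erythropoietin signalling tested, 0 were lower and 1 higher, *Stat5b*, with a log2 fold change of 0.22, and *Epor* had one of -0.43 (limma adjusted p = 0.474 and 0.602). No erythropoietin signalling gene was higher without *Atf6*+/+ replicate 3 or 4 or *Atf6*-/- replicate 1, 5 or 6, and 2 were without *Atf6*+/+ replicate 1 or 2. In this group 1 gene was lower without *Atf6*+/+ replicate 1 or 2 or *Atf6*-/- replicate 4. Of 18 genes of late maturation, 6 were lower and 0 higher, and 3 were lower without *Atf6*+/+ replicate 3 or *Atf6*-/- replicate 1. Those that passed included *Ube2l6* and *Bpgm*, which followed the globins (log2 fold changes -0.77 and -0.49, limma adjusted p = 0.307 and 0.389). *Car1*, *Car2* and *Hemgn* did not pass (log2 fold changes -0.49, 0.18 and -0.60, limma adjusted p = 0.642, 0.520 and 0.710). Over all genes tested the median log2 fold change was -0.01, and over the lists of haem synthesis, transport, membrane, factors and late maturation the medians were -0.05, -0.10, -0.20, -0.42 and -0.18, while over that of erythropoietin signalling it was 0.07. When single libraries were omitted, the medians ran from -0.07 to -0.03 for haem synthesis (nearest 0 without *Atf6*+/+ replicate 5, farthest without *Atf6*+/+ replicate 1 or 3 or *Atf6*-/- replicate 4), from -0.26 to -0.13 for the membrane (nearest 0 without *Atf6*+/+ replicate 3) and from -0.54 to -0.17 for the factors (nearest 0 without *Atf6*+/+ replicate 3 or *Atf6*-/- replicate 1). That of erythropoietin signalling ran from 0.03, without *Atf6*+/+ replicate 4, to 0.11, without *Atf6*-/- replicate 2, and was low without *Atf6*-/- replicate 5 too.

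**Figure D4:**
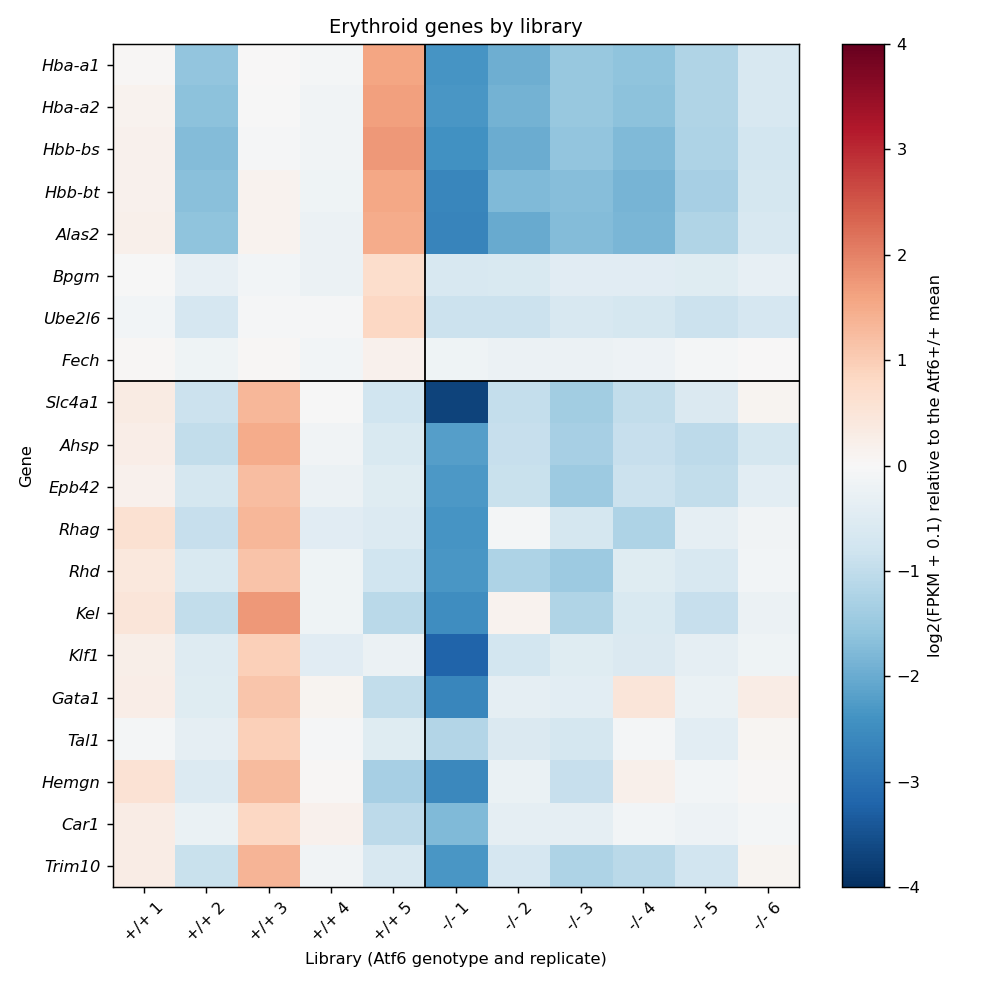
Difference of log2(FPKM + 0.1) from the *Atf6*+/+ mean for 20 erythroid genes (rows) in the 11 libraries (columns, *Atf6*+/+ left of the line), red above and blue below. Rows above the horizontal line follow the globins, highest in *Atf6*+/+ replicate 5, and rows below it follow *Slc4a1*, highest in *Atf6*+/+ replicate 3 and lowest in *Atf6*-/- replicate 1 (*Slc4a1* 0.59 FPKM).

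The means of the neutrophil, B lineage, cell cycle and megakaryocyte lists, like *Slc4a1* and *Ahsp*, were highest in *Atf6*+/+ replicate 3 and lowest in *Atf6*-/- replicate 1. Of 14 neutrophil genes, 8 were lower and 0 higher, and their summed level ran from 285 to 3358 FPKM in *Atf6*+/+ and from 99.97 to 1273 FPKM in *Atf6*-/- cochleae, with no gene at 0 in any library. The highest sum was that of *Atf6*+/+ replicate 3, and *S100a8* was at 874 FPKM there and at 23.7 FPKM in *Atf6*-/- replicate 1. Of 11 B lineage genes, 3 were lower and 0 higher (sums of 31.9 to 57.7 and of 30.6 to 40.7 FPKM), and *Vpreb1* alone was listed at 0, in 2 libraries. Of 11 cell cycle genes, 3 were lower and 0 higher (sums of 16.4 to 63.7 and of 7.12 to 31.8 FPKM). These counts rested on single libraries. The number of neutrophil genes lower was 2 without *Atf6*+/+ replicate 3 or *Atf6*+/+ replicate 4, 4 without *Atf6*-/- replicate 1 and 3 without *Atf6*-/- replicate 5. For B lineage genes it was 1 without *Atf6*+/+ replicate 3 or 4 and 5 without *Atf6*+/+ replicate 1 or *Atf6*-/- replicate 6. For cell cycle genes it was 0 without *Atf6*+/+ replicate 3 or *Atf6*-/- replicate 1 or 3, 1 without *Atf6*+/+ replicate 4 and 5 without *Atf6*-/- replicate 4. Within genotypes, *Slc4a1* correlated with the mean of the neutrophil list with r = 0.636 (rho = 0.473, exact permutation p = 0.0452 and 0.165, adjusted p = 0.0833 and 0.230) and *Ahsp* with r = 0.748 (rho = 0.700, exact permutation p = 0.0160 and 0.0301, adjusted p = 0.0373 and 0.0766). The relation of *Ahsp* fell to r = 0.245 without *Atf6*+/+ replicate 3 and *Atf6*-/- replicate 1, so it rested on those libraries. With the B lineage list *Slc4a1* gave r = 0.680 (rho = 0.664, exact permutation p = 0.0108 and 0.0387, adjusted p = 0.0275 and 0.0902), and r = 0.688 without *Atf6*+/+ replicate 2 and *Atf6*-/- replicate 1. *Ahsp* gave r = 0.752 with it (rho = 0.564, exact permutation p = 0.0242 and 0.103, adjusted p = 0.0521 and 0.204), and r = 0.368 without *Atf6*+/+ replicate 3 and *Atf6*-/- replicate 1. *Hbb-bs* and *Alas2* did not follow the neutrophil list (r = -0.099 and -0.019, exact permutation p = 0.802 and 0.961). With *Alas2*, the B lineage and endothelium lists gave r = 0.449 and 0.379 (exact permutation p = 0.278 and 0.401, adjusted p = 0.482 for each). *Hbb-bs* gave r = 0.377 with the B lineage list (exact permutation p = 0.418, adjusted p = 0.532). With that list *Alas2* and *Hbb-bs* gave r = 0.935 and 0.907 within *Atf6*-/- and 0.267 and 0.223 within *Atf6*+/+ cochleae. Without *Atf6*+/+ replicate 5 these relations over both genotypes were r = 0.656 and 0.634.

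When the mean of the neutrophil and B lineage genes was added to the model, the log2 fold changes of the 4 globins were -1.44 to -1.55 and that of *Alas2* was -1.53 (limma adjusted p = 0.778). That of *Slc4a1* was then -0.34 and that of *Ahsp* -0.50 (limma adjusted p = 0.948 and 0.872). In this model 5 of the 7 members were lower at the unadjusted rule, as were 3.57% of all genes. When the level of *Hbb-bs* was added instead, *Alas2* was at -0.13, *Slc4a1* at -0.55 and *Ahsp* at -0.82, and 0 of these 3 passed the unadjusted rule (limma adjusted p = 0.840, 0.895 and 0.808). In that model 3.58% of all genes were lower at the rule. *Hbb-bs* is itself a member with a log2 fold change of -1.62, and *Alas2* followed it within genotypes (r = 0.988). This fit therefore cannot show whether the 3 genes differed apart from the globins.

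The summed level of 10 bone genes, among them *Bglap*, the gene of osteocalcin, was 361 to 2105 FPKM in *Atf6*+/+ and 284 to 922 FPKM in *Atf6*-/- cochleae, highest in *Atf6*+/+ replicate 5, and 0 of the 10 passed the unadjusted rule. *Hbb-bs* correlated with their mean with r = 0.696 (rho = 0.536, exact permutation p = 0.0386 and 0.117, adjusted p = 0.0772 and 0.204), and with r = 0.357 without *Atf6*+/+ replicates 2 and 5. When the bone list was added to the model, the globins differed by -1.16 to -1.30 on the log2 scale, *Alas2* by -1.32, *Slc4a1* by -1.11 and *Ahsp* by -1.11. The same 6 members were lower at the unadjusted rule as without it, beside 4.61% of all genes. Of 10 endothelial genes, 1 was lower (*Vwf*, log2 fold change -0.38) and 1 higher (*Emcn*, log2 fold change 0.29). Of 10 megakaryocyte genes, 0 were lower and 0 higher, and of 9 macrophage genes 0 were lower and 1 was higher (*Vcam1*, log2 fold change 0.24). Of 9 genes of haem and haemoglobin clearance, 1 was lower (*Blvra*, log2 fold change -0.16) and 0 higher. Of 8 hair cell and 9 other cochlear genes, 0 were lower, and 2 (*Ocm* and *Slc26a5*) and 1 (*Coch*) were higher. With single libraries left out, the number lower ran from 1 to 3 for endothelium (3 without *Atf6*+/+ replicate 1), 0 to 2 for clearance and megakaryocytes and 0 to 1 for macrophages, and the number higher from 0 to 1 for macrophages, clearance and other cochlear genes and 1 to 2 for hair cells. How much of the difference in globin RNA came with the blood, marrow or bone in each sample was not tested.

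The differences of the globins and *Alas2* kept their sign and passed the unadjusted rule with each library left out in turn, but their size followed the libraries at the ends. The log2 fold change of *Hbb-bs* was -1.18 without *Atf6*+/+ replicate 5, where its level was 10452 FPKM, and -2.05 without *Atf6*+/+ replicate 2, where it was 946 FPKM. Without both *Atf6*+/+ replicate 5 and *Atf6*-/- replicate 1, the highest and the lowest globin library, it was -1.02 (limma adjusted p = 0.522), those of the other globins were -0.96 to -1.08, and those of *Alas2*, *Slc4a1* and *Ahsp* were -1.11, -0.96 and -1.14. All 7 members were then lower at the unadjusted rule, as were 5.05% of all genes, and 0 passed an adjusted p of 0.05. The replicates at the ends were chosen after their values were seen.

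**Figure D5:**
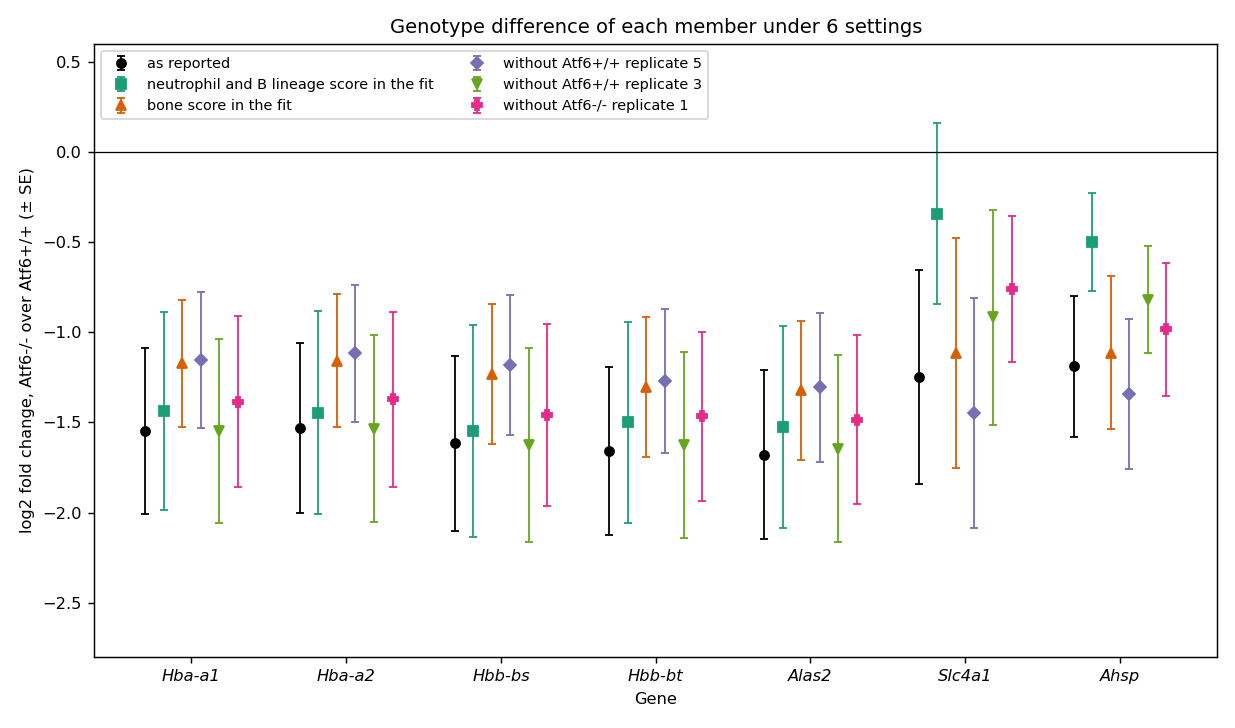
Log2 fold change (*Atf6*-/- over *Atf6*+/+) of each member with its standard error as reported, with the neutrophil and B lineage score or the bone score in the model, and without *Atf6*+/+ replicate 5, *Atf6*+/+ replicate 3 or *Atf6*-/- replicate 1. The globins and *Alas2* stay between -1.12 and -1.68 in these settings, whereas *Slc4a1* and *Ahsp* come to -0.34 and -0.50 with the neutrophil and B lineage score in the model.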

How the data were processed

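RNA-Seq values of 5 *Atf6*+/+ and 6 *Atf6*-/- cochleae were used, grouped by the genotype and numbered by the title in the labels. According to the methods, the authors aligned stranded paired-end reads to GRCm39 and computed the deposited FPKM per gene and library with RSEM. The submitters' processing notes name HISAT2 2.0.4, RSEM 1.2.12 and DESeq2 1.4.5, and the methods give another RSEM version. The deposited tables, 1 for each genotype, hold gene identifiers and FPKM alone. FPKM are not counts, so 0.1 was added, log2 values of genes averaging 0.1 FPKM or more were fitted with limma 3.58.1 (R 4.3.3, mean-variance trend, genotype as the only term, two-sided), and p-values were adjusted by Benjamini-Hochberg over 16169 genes. Differences are on the log2(FPKM + 0.1) scale, which understates those of low genes. The unadjusted rule, a p of at most 0.05 with a log2 difference beyond 0.05, follows the cut-offs of the study, with limma in place of its count model. Nothing states that the libraries came from separate litters or days, so p-values measure the spread between these libraries. The members were also tested by exact two-sided permutation over every split of 11 libraries into 5 and 6, whose smallest p is 0.00216. Relations used every pairing within genotypes.

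The 7 members and the 19 gene lists were chosen with earlier results of these data known. Named genes are the members, *Atf6*, fixed lead genes of the erythroid lists, up to 3 genes of each list with the smallest p, and the 5 genes most like *Alas2* and *Hbb-bs*. Genes named for their correlation with *Hbb-bs* or *Slc4a1*, and *S100a8*, *Vpreb1* and *Bglap*, were added after their values were seen. *Hbb-bh0*, *Hbb-bh1* and *Hbb-bh2* were not analysed here. A few genes that the rule names are not reported here. Coding sequences are the longest reading frames of the GENCODE transcripts and promoters are from RefSeq, both on GRCm38. The fit was tested on simulated data for this comparison with 16169 genes. At an adjusted p under 0.05 it found 92.0% of 200 genes that had been lowered by 1 (log2). Genes left as they were made up 7.07% of its calls. The members had standard errors from 0.39 (*Ahsp*) to 0.59 (*Slc4a1*), and recovery of genes with such a spread was not tested. Alternatives were pseudocounts of 1 and 0.01, no filter, a mean of at least 1 FPKM, TPM with and without globins, summed paralogs, robust variance, a replicate block, median-of-ratios scaling, covariates and leaving out libraries. The covariates of bone and *Hbb-bs* and the omission of 2 libraries at the ends were chosen after seeing the data. Python 3.11.15 was used with numpy 2.4.6, pandas 2.3.3, scipy 1.17.1, matplotlib 3.10.9 and Biopython 1.88.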

Additional observations from a re-analysis of the deposited data

Results flagged for a closer look

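In *Atf6*+/+ replicate 5, *Hba-a1* was at 19706 FPKM, *Hba-a2* at 14308 FPKM and *Hbb-bs* at 10452 FPKM, each farther from the nearest other *Atf6*+/+ library than Dixon's test allows for 5 samples (gap over range 0.736, 0.721 and 0.734, against a critical value of 0.71). Of 22 groups of values tested in this way, 3 were marked, where chance marks about 1 in 20, and the 3 genes are not independent. The library was kept, and without it the log2 fold changes of these genes were -1.15, -1.12 and -1.18. The gaps of *Hbb-bt* and *Alas2* were below the critical value, although the same library was highest. These gaps are on the FPKM scale, whereas the fits used log2 values, so the marks do not apply to the fitted values.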

How the results depend on the processing

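All 7 members kept a lower mean in *Atf6*-/- cochleae under every alternative run. The globins passed the unadjusted rule in all of 23 or 24 alternatives and *Slc4a1* in 7 of 25. *Alas2* passed in 24 of 25, the exception being the fit with *Hbb-bs*, itself a member, as a covariate. *Ahsp* passed in 23 of 25, not with *Hbb-bs* or with the neutrophil and B lineage score, the mean of those 2 lists. The number of members that passed was 5 with the neutrophil and B lineage score, 6 as reported and 7 in 7 alternatives, and from 6 to 7 without single libraries. The share of all genes lower at this rule ran from 2.72%, with TPM, to 6.14%, without *Atf6*+/+ replicate 1. None had an adjusted p under 0.05 in any alternative, and the lowest was 0.129, for *Hbb-bt* without *Atf6*+/+ replicate 2. *Slc4a1* passed with a pseudocount of 1, with the replicate block, without 2 libraries at the ends, and without *Atf6*+/+ replicate 2 or 5 or *Atf6*-/- replicate 5 or 6, and its log2 fold change ranged from -0.34 to -1.52. Replicate numbers did not pair the libraries: deviations of libraries with the same number correlated with r of 0.095, -0.122, -0.211, 0.119 and -0.040. With the replicate block, which leaves *Atf6*-/- replicate 6 without a partner, the log2 fold changes of *Hbb-bs*, *Alas2*, *Slc4a1* and *Ahsp* were -1.79, -1.89, -1.52 and -1.29, 7 members were lower, and 658 genes were lower in all. Over all genes, TPM moved the median difference from -0.01 to 0.04 (log2) and the numbers lower and higher from 868 and 724 to 439 and 1389, the cause was not tested, and the count of members stayed at 6. The FPKM carry no read numbers, and 11 libraries limit the precision.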
